A study of Homo sapiens with 8 samples.

Results

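Mature miR-139-5p was transfected into A498 and 786-O cells, and gene expression was set against mock cells of the same line on Agilent 2-colour arrays. A498 and 786-O are established human renal cancer cell lines. The members are the arrays whose transfection label reads miR-139-5p, which were 2 of the 8 arrays of the series, 1 for A498 and 1 for 786-O. Cy3 marked RNA of the mock, for which the labels state no transfection, and Cy5 marked RNA of cells given the miRNA with the lipid reagent Lipofectamine RNAiMAX. In the ratio to mock alone, an effect of the lipid or of any transfected small RNA therefore cannot be told apart from an effect of the miR-139-5p sequence. The miR-139-3p arrays show where another small RNA gave a like value in the same line. With 1 array per strand and line, a difference between the strands was not tested. The time of harvest and the dose are not given in the sources used here. Arrays of miR-139-3p in A498 and 786-O (1 each) are given beside the results, and 4 arrays of other lines served as a reference, namely 2 siRNAs against GINS1 in MDA-MB-231 breast cancer cells and both strands of miR-490 in HCT116 colorectal cancer cells (1 array for the 5p and 1 for the 3p strand). The labels do not say whether both arrays of a line carried the same mock extract.

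A miRNA guides an Argonaute protein to messenger RNAs, mostly through pairing of its seed (the bases next to its 5′ end) with sites in 3′ untranslated regions, and the paired messages are repressed and often destabilised. miR-139-5p is the guide strand of the miR-139 hairpin, which lies in an intron of the phosphodiesterase gene PDE2A. It is known as a miRNA with low levels in many carcinomas, and IGF1R, NOTCH1, ZEB1 and HNRNPF are among its reported targets. Both strands are shown because they were transfected separately into the same lines. Capitals mark the seed, bases 2 to 8, and the sequences are those of RefSeq (GRCh38.p14, chromosome 11, minus strand).
miR-139-5p (chr11:72615102-72615124): uCUACAGUgcacgugucuccagu
miR-139-3p (chr11:72615066-72615088): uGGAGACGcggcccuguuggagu
A message that pairs with the seed of miR-139-5p carries ACTGTAG, and one that pairs with bases 2 to 7 and has an A opposite the first base carries CTGTAGA. PDE2A itself stayed near 0, at a log2 ratio of 0.04 in A498 and -0.05 in 786-O.

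With so few arrays every value is of limited precision. All values below are log2 ratios of transfected over mock unless another scale is named. Of 10 renal tubule markers 9 were well above background in the mock channels of A498 and of 786-O, among them PAX8, PAX2, LHX1 and CDH16. EMX2 was not. In MDA-MB-231 and HCT116 5 and 6 of the 10 were, with PAX8 and LHX1 among them in both, while CDH6 and CDH16 were not above background there. AQP1 and GGT1 were above background in every line, and both were brighter in MDA-MB-231 than in either renal line. Of 7 gut epithelium markers 2, CDX1 and EPCAM, were above background in each renal line, and 4 were in HCT116, where VIL1 and LGR5 were not. After quantile normalisation the difference between the mock signals of both arrays of a line had an SD of 0.0919 log2 units for A498 and 0.0707 for 786-O. By that measure 4 and 5 of 16532 genes differed by 0.5 or more.

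The first question was which genes moved the same way in both renal lines. No gene did so by the rule used here. The rule asked for a log2 ratio of -0.5 or lower, or of 0.5 or higher, and for the same after the mean of the 4 reference arrays was taken off, so that a probe which takes up the dyes unequally on all arrays was not counted. Of 16532 genes measured on both miR-139-5p arrays and on all 4 reference arrays, 0 were lower in both lines (0%) and 0 were higher in both lines (0%). By the ratio alone 6 genes lay at or below -0.5 on both arrays and 0 lay at or above 0.5. Of these 6, 5 also had a reference mean at or below -0.5, and 4 lay there on each of the 4 reference arrays.

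Most of the 6 probes were low on all arrays, and without a dye swap a dye bias and an effect of the lipid cannot be told apart. ACTL8, an actin-like protein, lay at -2.34 in A498, at -2.81 in 786-O, and in the reference between -2.82 and -2.21. C1QTNF5 lay at -2.25 and -2.16, against -2.58 to -2.43. PDGFRB, a receptor tyrosine kinase of mesenchymal cells, lay at -0.88 and -1.01, against -1.08 to -1.03. SMAD1-AS1, an antisense transcript, lay at -1.01 and -1.06, against -1.01 to -0.92. Each of these 4 probes was about as low in the breast and colorectal lines as in the renal lines. The signal of the transfected channel was not well above background on either miR-139-5p array for ACTL8, SMAD1-AS1 and a transcript named only ENST00000543321. For these the mock channel was the brighter in the mean of both miR-139-5p arrays. The fold was 5.96 (ACTL8, limma adjusted p = 0.0473), 2.05 (SMAD1-AS1, limma adjusted p = 0.0473) and 1.45 (ENST00000543321). These folds take the dim channel at its measured value and are open to dye bias. ENST00000543321 lay at -0.52 in A498 and -0.56 in 786-O, against -0.50 to -0.36. The sixth, lnc-SLC2A4RG-1, lay at -1.52 and -1.53, at -1.70 to -1.41 on 3 reference arrays and at -0.04 on the array of siRNA 1.

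**Figure D1:**
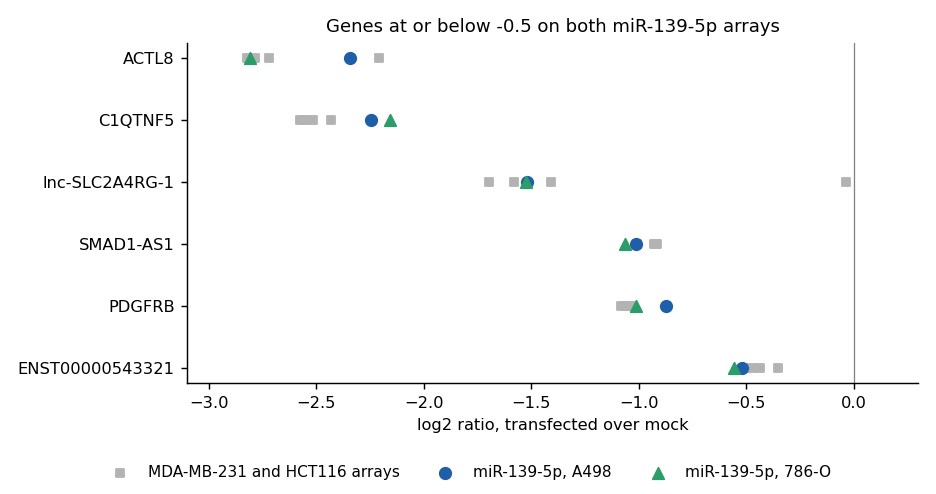
Log2 ratio of transfected over mock (x axis) of the 6 genes at or below -0.5 on both miR-139-5p arrays. Blue circles are A498, green triangles are 786-O and grey squares are the 4 MDA-MB-231 and HCT116 arrays, 1 value each. The grey squares lie at or beside the renal values for each gene, apart from a single square of lnc-SLC2A4RG-1 at -0.04.

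The limma fit over all 8 arrays asked a related question, whether the mean of both miR-139-5p arrays differed from 0. It took the lines as replicates of 1 group, with a shared estimate of the spread. It did not ask that each line move by itself. Against mock it called 3 of 23282 probes (0.0129%), all lower and all among the probes above (ACTL8, C1QTNF5 and SMAD1-AS1), and 593 had an unadjusted p under 0.05. With the reference arrays taken off, limma called 0 of 21341 probes (0%), the smallest adjusted p was 0.245, and 2262 had an unadjusted p under 0.05. The scanner software's log ratio, the smaller offset and median centring of the arrays also gave 0 calls there. The count was 5 (2 lower and 3 higher) with no filter on dim probes, and 1 with the median of the reference arrays in place of the mean. The shared spread came from A498 against 786-O for each miR-139 strand, and from siRNA 1 against siRNA 2 of GINS1, fitted as 1 group. The p-values thus measure differences between lines and between siRNAs of unlike sequence. They do not measure a spread between repeated cultures of a line, for which the labels name no repeat.

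The arrays differed in how far genes lay from 0. Over 16532 genes the SD of the log2 ratio was 0.143 in A498 and 0.105 in 786-O, against 0.305 to 0.429 on the reference arrays. The miR-139-3p arrays were at 0.187 in A498 and 0.106 in 786-O. In A498, 37 genes were lower (0.224%) and 11 were higher (0.0665%) by both measures. In 786-O, 2 were lower (0.0121%) and 3 were higher (0.0181%). This excess of lower genes in A498 depended on the scaling. Under median centring in place of loess the median of all genes stood at 0.19 in A498, and at 0.38 for genes of a mean log2 intensity of 8 or more, against 0.00 in 786-O. The counts in A498 were then 9 lower and 213 higher, or 22 lower and 56 higher relative to that median. They were 362 and 449 by the scanner log ratio. With 1 array per line no difference between the lines was tested.

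**Figure D2:**
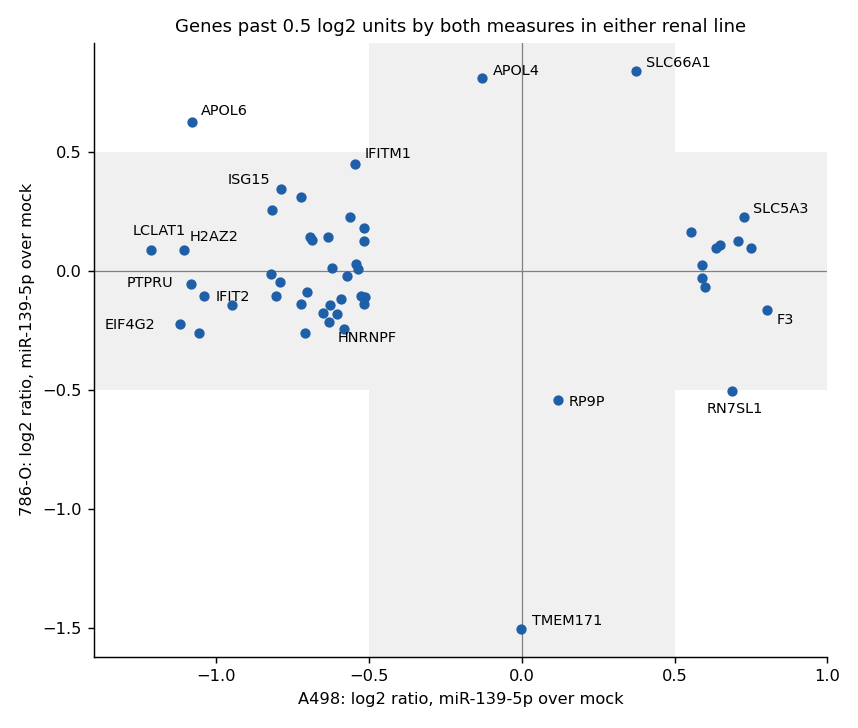
Log2 ratio of miR-139-5p over mock in A498 (x axis) against that in 786-O (y axis) for each gene past 0.5 log2 units by both measures in either line, 1 array per line. Grey bands mark values within 0.5 of 0 in either line. Most points lie along the A498 axis at left, the white corners at lower left and upper right are empty, and APOL6 stands in the upper left corner at -1.08 in A498 and 0.63 in 786-O.

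Of the 37 genes lower in A498, 24 (0.145% of all genes) were within 0.25 of 0 by both measures in 786-O, and of the 11 higher, 4 were (0.0242%). The 24 lay between -1.12 and -0.51 in A498, with a median of -0.63, and between -0.24 and 0.23 in 786-O. On the miR-139-3p array of A498 the same genes ranged from -1.37 to 0.63 with a median of -0.02. Another probe was measured for 7 of the 24 genes, and all 9 such probes were also below 0, 5 of them at or below -0.5. The mock signals of the A498 arrays differed by 0.25 or more for 2 of them, H2AZ2 (0.31) and LAPTM4B (0.32), where the mock of the miR-139-5p array was the brighter. The part of the mock in their ratios was not tested.

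EIF4G2 and HNRNPF are both reported targets of miR-139-5p. EIF4G2 encodes a relative of the initiation factor eIF4G that supports translation without the cap complex. Its probe (NM_001418, hg19 chromosome 11, 10818593 to 10818627) lay at -1.12 in A498, a 2.17-fold lower signal than in mock, and at -0.22 in 786-O. A further probe of the gene lay at -1.01 and -0.36. With miR-139-3p the values were -0.06 in A498 and 0.11 in 786-O, and the reference arrays lay between -0.50 and 0.07. EIF4G2 was thus below each of the other arrays in A498, and in 786-O it lay inside the range of the reference arrays. limma gave a mean of -0.67 ± 0.63 (SD, n = 2), an SE of 0.22 and an unadjusted p of 0.0304, which did not pass after adjustment (limma adjusted p = 0.9999, and 0.617 less the reference).

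HNRNPF, a heterogeneous nuclear ribonucleoprotein that takes part in splicing (NM_004966, hg19 chromosome 10, 43882043 to 43882102), lay at -0.63 in A498 and -0.22 in 786-O. With miR-139-3p it lay at -0.06 and 0.00, and on the reference arrays between -0.32 and 0.16. The A498 value was the lowest of the 8 arrays, and the 786-O value was within the range of the reference arrays. The mean was -0.42 ± 0.29 (SD, n = 2; limma adjusted p = 0.519 less the reference). Under median centring EIF4G2 was at -0.72 and HNRNPF at -0.36 in A498, where the median of all genes was 0.19.

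Among the 37 genes lower in A498 (0.224% of all genes), 4 encode cytosolic chaperones or a part of one. They were singled out after their values were seen, and other chaperones on the array were not counted. The share of chaperones past the limit is therefore not known, and the count says nothing about the family. HSP90AA1, the stress-inducible HSP90, lay at -0.69 in A498 and 0.14 in 786-O, and both its other probes lay at or below -0.87 in A498, with -0.11 and -0.22 in 786-O. HSPA1B, an inducible HSP70, lay at -0.63 in A498 and 0.14 in 786-O, and its near-identical copy HSPA1A could share its signal. HSPA8, the constitutive HSC70, lay at -0.58 and -0.24. PFDN6, a subunit of the prefoldin complex that hands nascent chains to a chaperonin, lay at -0.52 and 0.18. With miR-139-3p in A498 the same genes lay at 0.05, 0.43, 0.30 and 0.37 respectively, all above 0. The HSP90AA1 value in A498 was not outside the reference arrays, which ran from -0.84 to 0.65.

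Further genes low in A498 have roles in chromatin, RNA processing and the cell surface. PTPRU, a receptor-type tyrosine phosphatase, lay at -1.08 in A498 and -0.05 in 786-O, but its other probe lay at -0.16 in A498, so its probes disagree. Its reference arrays ran from -1.17 to 1.06. H2AZ2, a histone H2A.Z variant, lay at -1.11 and 0.09, and its mock difference is given above. DPY30, a core subunit of the histone H3 lysine 4 methyltransferase complexes, lay at -0.65 and -0.18. CPSF3, the nuclease that cuts pre-messenger RNA before polyadenylation, lay at -0.69 and 0.13, and PODXL, a surface sialomucin, at -0.95 and -0.14. DPY30 and PODXL were lower in A498 with miR-139-5p than on any of the other 7 arrays, and so was CPSF3. This rank is partly built in. The genes had to be low in A498 and low less the reference, and they were named after their values were seen.

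The 4 genes higher in A498 and near 0 in 786-O were F3, UPP1, PER2 and COL5A1. F3, tissue factor and the starter of coagulation, lay at 0.80 in A498 and -0.16 in 786-O. With miR-139-3p in A498 it lay at -0.58, on the other side of 0. UPP1, which splits uridine, lay at 0.59 and -0.03, and its other probe at 0.71 and 0.02. PER2, a repressor of the circadian clock, lay at 0.60 and -0.07. COL5A1, a chain of collagen V, lay at 0.71 and 0.13, and at -0.85 with miR-139-3p in A498. For F3, UPP1 and COL5A1 the array of the other strand in A498 thus lay at or below -0.5, and for PER2 it lay at 0.06.

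**Figure D3:**
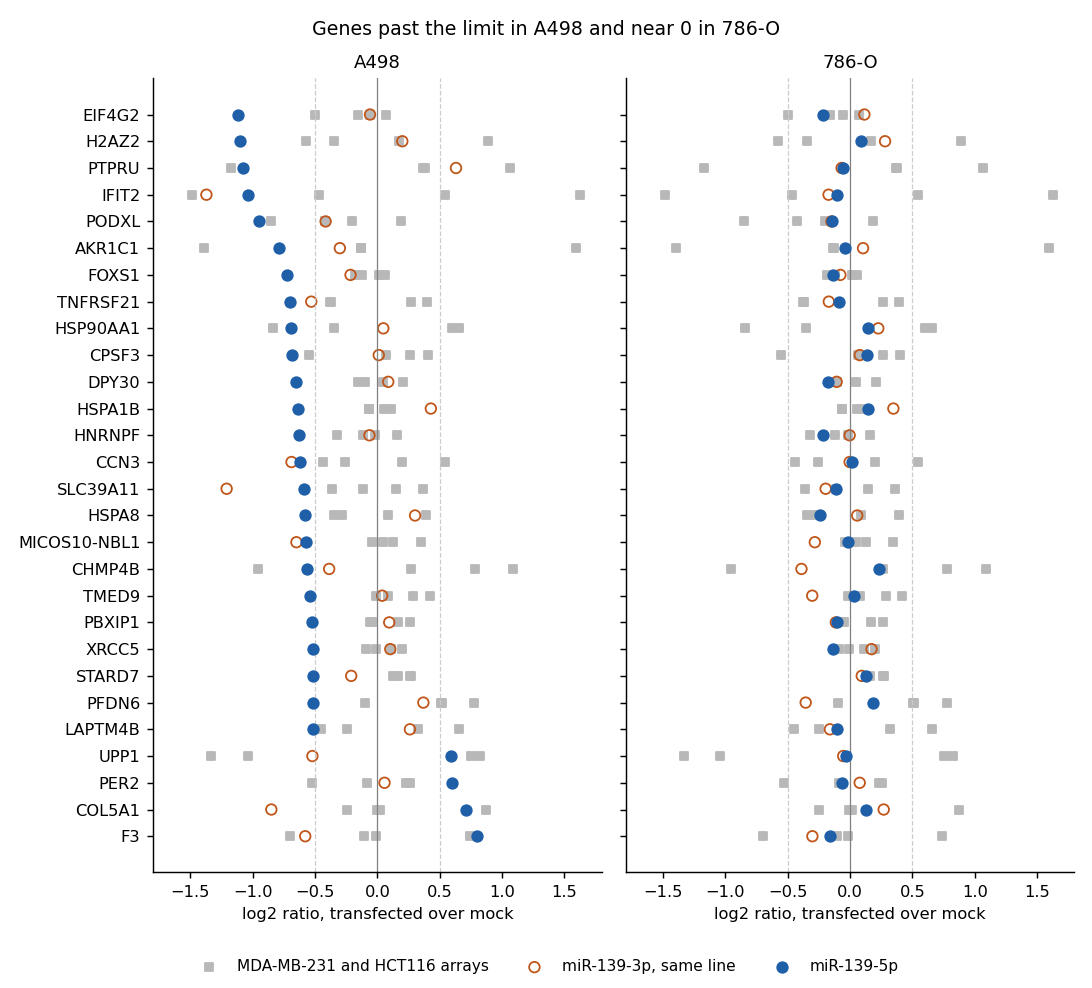
Log2 ratio of transfected over mock (x axis) for the 28 genes past the limit in A498 and near 0 in 786-O, in A498 (left) and 786-O (right). Filled blue circles are miR-139-5p, open circles miR-139-3p in the same line, and grey squares the 4 MDA-MB-231 and HCT116 arrays, which are the same in both panels. Dashed lines mark 0.5 on either side of 0. The 24 lower genes lie between -1.12 and -0.51 at left and between -0.24 and 0.23 at right.

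The other 13 lower genes in A498 were not near 0 in 786-O by both measures, and lay there between -0.26 and 0.63. LCLAT1, an acyltransferase that remodels cardiolipin, had the lowest A498 value of them, -1.21, with 0.09 in 786-O and -0.28 at its other measured probe in A498. DCBLD2, a neuropilin-like receptor, lay at -1.06 and -0.26, and its other probes at -0.91 and -0.71 in A498. HMOX1, haem oxygenase 1, lay at -0.82 and -0.01, and RDH10, a retinol dehydrogenase, at -0.80 and -0.10. For HMOX1 and RDH10 the reference mean was 0.62 and 0.40, so that the values less the reference, -1.44 and -1.20, hold changes of the reference arrays as well. The 7 other higher genes lay between -0.51 and 0.23 in 786-O, where the lowest was past -0.5 by the ratio but not less the reference. Among them INSIG1, which retains the sterol sensor SCAP in the endoplasmic reticulum, lay at 0.75 in A498 and 0.10 in 786-O. SLC5A3, a myo-inositol transporter, lay at 0.73 and 0.23. The reference means of INSIG1 and SLC5A3 were -0.48 and -0.52.

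In 786-O, 2 genes were lower (0.0121%) and 1 was higher (0.00605%) with A498 near 0. TMEM171, a membrane protein, lay at -1.50 in 786-O, 0.00 in A498 and 0.06 on the 786-O array of the other strand. The mock signal of TMEM171 was 1.66 log2 units brighter beside miR-139-5p than on that array, a difference as large as the ratio. RP9P, a pseudogene whose probe may also bind RP9 transcripts, lay at -0.54, with a mock brighter by 0.46. Both lower genes of 786-O thus go with a mock that differed between the 786-O arrays, whose part in the ratios was not tested. APOL4, an apolipoprotein L, lay at 0.81 in 786-O and -0.13 in A498, and its other measured probe at 0.02 and -0.02, so its probes disagree.

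APOL6, also of the interferon-inducible apolipoprotein L family, was the only gene past the limit in opposite directions (0.00605% of 16532 genes). It lay at -1.08 in A498 and 0.63 in 786-O. With miR-139-3p it lay at -1.07 and 0.29, and on the reference arrays between -0.55 and 0.05. For its other probes the A498 values were 0.03 and -0.33 and the 786-O values -0.06 and -0.05, which do not show the same change. The direction of the probe was kept under median centring (-0.78 and 0.61) and by the scanner log ratio (-1.36 and 0.88).

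For genes reported as miR-139-5p targets, a list of 22 was set from general knowledge. All were on the array and 17 were measured on all 6 arrays used. In A498, 2 of the 17 were lower by the rule of size (EIF4G2 and HNRNPF) and 0 were higher, against 0.224% lower among all genes. In 786-O 0 passed in either direction. The median of the list was -0.12 in A498 and -0.04 in 786-O, against 0.01 and 0.00 over all genes. By both measures 11 of the 17 were below 0 in A498 and 8 in 786-O, against 30.7% of all genes in each line. Less the median of all genes, the targets lay between -0.16 and -0.12 in A498 over loess, scanner log ratio, smaller offset, median centring and both-channel filter. In 786-O it lay between -0.05 and 0.02 and so changed sign. With miR-139-3p the medians were 0.00 in A498 and -0.04 in 786-O. Reference medians were -0.12 (siRNA 1), 0.09 (siRNA 2), 0.07 (miR-490-5p) and 0.02 (miR-490-3p). By the ratio alone 11 of the 17 were below 0 with miR-139-5p in A498, and 11 were on the siRNA 1 array. The counts were 11 for miR-139-3p in 786-O, 9 for it in A498, and 6 to 8 on the remaining reference arrays. The list median in A498 was thus no lower than on the siRNA 1 array. A response of the list to miR-139-5p was not tested.

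IGF1R, the receptor of insulin-like growth factor 1, lay at -0.22 in A498 and 0.06 in 786-O. NOTCH1 lay at 0.02 and 0.03. Neither was past 0.25, and NOTCH1 lay within 0.05 of 0 in both lines. ZEB1, a repressor of epithelial genes, lay at -0.30 and -0.15 with its other probe at -0.01 and 0.18, and at -0.28 and -0.12 with miR-139-3p. Less the reference, which ran from -0.38 to 0.99, it lay at -0.56 in A498. MCL1, an anti-apoptotic relative of BCL2, lay at -0.18 and -0.16, and HOXA9, a homeobox factor, at -0.21 and -0.19, alike in both lines. The other probes of HOXA9 in A498 included -0.37 and -0.68, lower than the probe that stands for it. JUN lay at -0.12 and -0.08, MET at -0.05 in each line, RAP1B at 0.12 and 0.08, and FOXO1 at -0.09 and -0.05.

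RUNX1 (0.29 and -0.04) and HRAS (0.31 and 0.05) were the highest of the list in A498. HOXA10 lay at -0.13 in A498 and 0.15 in 786-O. BCL2 and FOS lay between 0.00 and 0.04, and the FOS mock channel of A498 was not well above background. ETS1 (-0.09 and -0.08), TCF4 (0.03 and 0.05) and ZEB2 (0.03 and -0.06) were measured in the renal lines but not on every reference array. CXCR4 and MMP11 did not pass the filter on dim probes. limma called 0 of the 17 genes against mock and 0 less the reference.

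**Figure D4:**
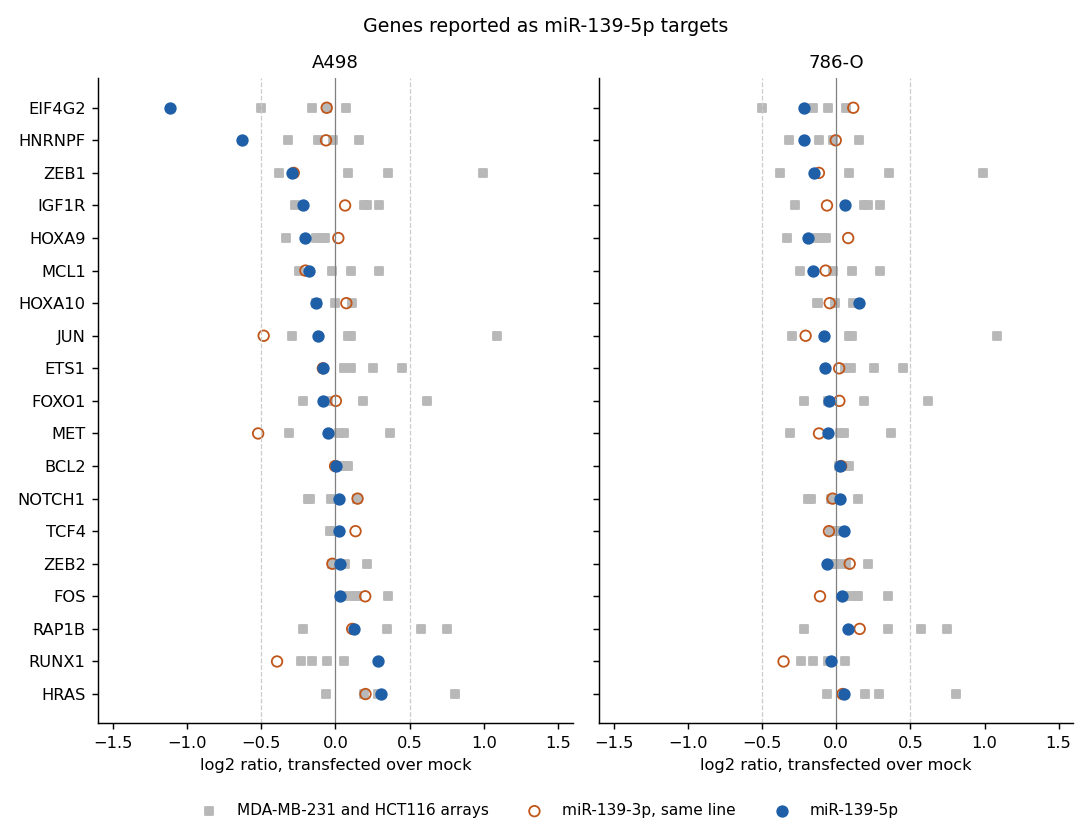
Log2 ratio of transfected over mock (x axis) for 19 genes reported as miR-139-5p targets, in A498 (left) and 786-O (right). Filled blue circles are miR-139-5p, open circles miR-139-3p in the same line, and grey squares the 4 MDA-MB-231 and HCT116 arrays. EIF4G2 at -1.12 and HNRNPF at -0.63 in A498 stand left of the dashed line at -0.5, and the other blue circles lie between -0.30 and 0.31 in A498.

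Seed matches were counted in the array probes, which are 60 bases long and run in the sense of the transcript, since whole 3′ untranslated regions were not used here. A match in a probe is a description and not a shown site. Of 21341 probes above background, 128 held ACTGTAG or CTGTAGA (0.600%), and 30 of them held both as ACTGTAGA (0.141%). The 128 probes had a median of 0.02 in A498 and 0.01 in 786-O, against 0.01 and 0.00 over all probes. Of the 128, 43.0% were below 0 in A498 and 44.5% in 786-O, against 46.5% and 49.5% of all probes. The 30 probes with both, taken alone, had a median of -0.06 in A498 and 0.00 in 786-O, against 0.01 and 0.00 over all probes. On the miR-139-3p arrays the medians of the 30 were 0.01 and 0.03. In A498, 26.7% of the 30 lay at or below -0.1 against 15.8% of all probes, and in 786-O 13.3% against 11.8%. By the rule of size 1 of the 30 was lower in A498 (0.225% of all probes) and 0 in 786-O (0.0187%). The following stretches from hg19 show the match, in capitals, in the 3 of the 30 probes lowest in A498. All lie on the minus strand, and the positions are those of the whole probe.
PMP22 (chr17:15133208-15133267): tgtattggccaccaACTGTAGA
NDRG2 (chr14:21484932-21484991): tgctataacaataaACTGTAGA
GOT2 (chr16:58741037-58741096): gttacaataaaattACTGTAGA
PMP22, a myelin and junction protein, lay at -0.63 in A498 and -0.14 in 786-O, with -0.48 and -0.20 for miR-139-3p and -0.23 to 1.31 on the reference arrays. NDRG2, a stress-responsive gene of the NDRG family, lay at -0.44 and 0.01, and GOT2, the mitochondrial aspartate aminotransferase, at -0.33 and 0.06. These 3 were picked for their low values in A498. At the other end OXSM, the highest of the 30 there, lay at 0.21 in A498 and 0.02 in 786-O.

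Interferon response genes lay mostly below 0 in A498 and above 0 in 786-O. Of a list of 20, 15 were measured, 13 of them below 0 in A498 (46.7% of all genes) and 11 above 0 in 786-O (50.8% of all genes). By the rule of size 4 were lower in A498 (against 0.224% of all genes) and 0 in 786-O. IFIT2, an interferon-induced RNA-binding protein, lay at -1.04 in A498 with its other probe at -1.06, and at -0.10 in 786-O. IFIT1, its relative, lay at -0.82 and 0.26. ISG15, a ubiquitin-like modifier, lay at -0.79 and 0.34, and IFI27 at -0.72 and 0.31. Each of the latter 3 was below mock in A498 and above it in 786-O. OASL (-0.96 and 0.13) and IFIT3 (-0.71 and 0.10) were as low in A498 by the ratio, but not after the reference was taken off, and IFI6 lay at -0.29 and 0.52.

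The same genes were lower still with the other strand in A498. There IFIT2 lay at -1.37, IFIT1 at -1.28, ISG15 at -0.87 and IFI27 at -1.07, and the list median was -0.87, against -0.29 with miR-139-5p. For 786-O the list median was 0.11 after miR-139-5p and -0.05 after miR-139-3p. The reference arrays also had list medians away from 0, from -0.53 (siRNA 1) to 0.51 (miR-490-3p). Less the median of all genes, the list in A498 lay at -0.30 with loess, -0.38 by the scanner log ratio, -0.34 with the smaller offset and -0.19 under median centring, where the median itself was 0.00. In 786-O it lay between 0.11 and 0.26 in these settings. limma called 0 of the 15 genes.

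**Figure D5:**
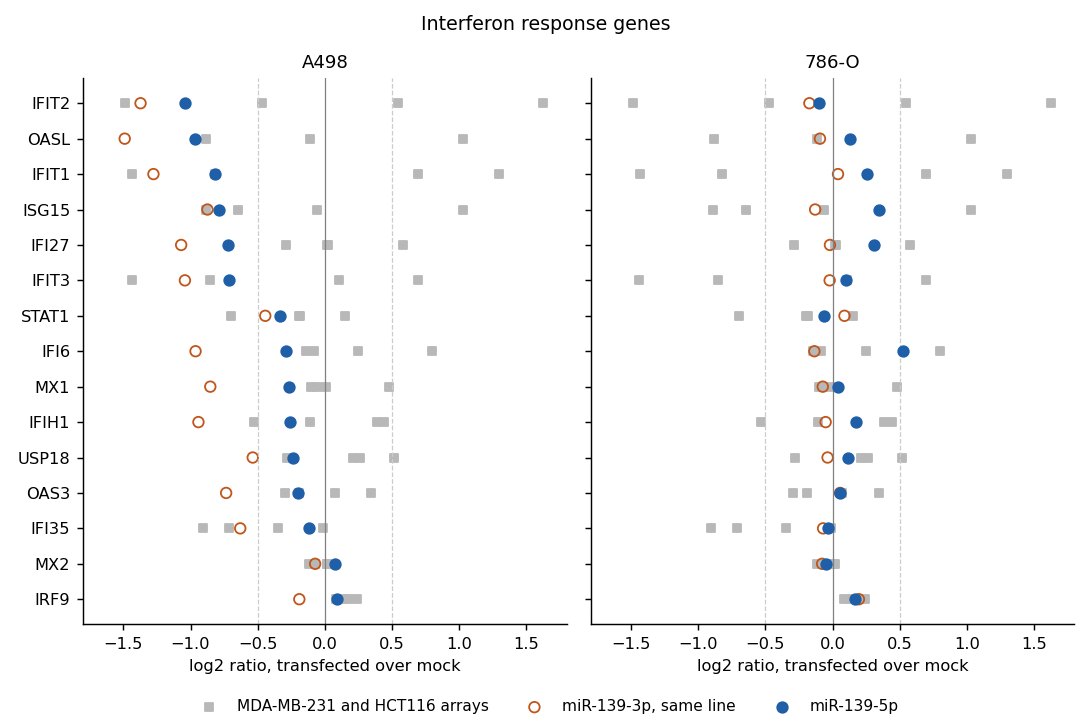
Log2 ratio of transfected over mock (x axis) for the 15 interferon response genes measured, in A498 (left) and 786-O (right). Filled blue circles are miR-139-5p, open circles miR-139-3p in the same line, and grey squares the 4 MDA-MB-231 and HCT116 arrays. In A498 13 blue circles lie below 0, and in 786-O 11 lie above 0, IFI6 furthest at 0.52.

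The remaining 14 lists held few genes past the limit. For IGF signalling, 0 of 16 measured genes passed in either line, and IGFBP6, a binding protein of IGF2, had the lowest ratio in A498 at -0.57, with -0.44 less the reference. The medians were 0.02 in A498 and 0.01 in 786-O, and 5 and 8 of the 16 were below 0. For NOTCH signalling 0 of 13 passed. Below 0 were 10 of the 13 in A498 (46.7% of all genes) and 4 in 786-O (49.2%), and the medians were -0.06 and 0.03. Its lowest was LFNG, a glycosyltransferase acting on NOTCH, at -0.57 in A498, which became 0.77 after the reference was taken off.

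Mitotic genes lay slightly to opposite sides. In A498 17 of 20 were above 0 (53.3% of all genes), with CENPF, a kinetochore protein, highest at 0.37, and in 786-O 15 of 20 were below 0 (49.2% of all genes), with the spindle kinesin KIF11 lowest at -0.32. The medians were 0.15 and -0.07, and with miR-139-3p they were 0.14 and -0.06. On the reference arrays they lay further from 0, at 0.26 (siRNA 1), -0.73 (siRNA 2), 0.26 (miR-490-5p) and 0.29 (miR-490-3p). No gene of this list passed the limit. Among HIF targets, which the hypoxia-inducible factors switch on, 1 of 21 was higher in A498 (0.0665% of all genes). This was ANKRD37 at 0.65, with 0.68 for miR-139-3p, and its mock channel in 786-O was not well above background. ADM lay at 0.52 and PFKFB3 at -0.54 in A498, and neither passed less the reference.

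Among sterol synthesis genes 1 of 16 was higher in A498 (0.0665% of all genes), INSIG1, and the other genes of that list ran no higher than 0.29 (HMGCS1). Among matrix and mesenchymal genes 1 of 16 was higher in A498, COL5A1, against the same 0.0665%, and COL4A1 lay at 0.50 in A498 and -0.03 in 786-O. CXCL2, an inflammatory chemokine, lay at 0.85 in A498 and -0.06 in 786-O, but the reference arrays were higher, which left -0.10 in A498. The lists of replication, p53 targets, amino acid stress, immediate early genes, inflammatory genes, miRNA machinery and metallothioneins held 0 genes past the limit in either line. For the miRNA machinery 10 of 12 genes were above 0 in A498 and 9 in 786-O (53.3% and 50.8% of all genes), and its medians of 0.20 and 0.05 became -0.05 and -0.11 less the reference. limma called 0 genes of any list.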

How the data were processed

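The intensity columns deposited by the authors give, per channel, the mean spot brightness and the median local background as linear values without normalisation. Per the file headers they come from Agilent Feature Extraction 11.5.1.1. A log10 ratio (Cy5 to Cy3) was deposited by the authors too, and the series value file repeats it (largest difference 0). It served as an alternative. Each array held 62976 spots, 2075 of them controls. Spots with an outlier flag (112 to 194 per array) were left out, and 0 were saturated.

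Background was corrected by normexp (offset 50, which pulls dim probes toward 0) and ratios were normalised by loess in limma 3.58.1 under R 4.3.3 (data.table version 1.17.8). Spots of a probe were averaged, and the probe of highest mean intensity stood for a gene. Of 58201 probes, 31104 were named through their RefSeq accession. Genes entered the rule of size when well above background in at least 1 channel on both miR-139-5p and the 4 reference arrays.

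limma (lmFit, eBayes) fitted 5 group means to the 8 arrays, leaving 3 residual degrees of freedom. Each ratio was tested against 0, which leaves out the spread of the mock, and p was adjusted by Benjamini-Hochberg with a threshold of 0.05. The fit was tried on simulated arrays with independent noise and a change of 1 log2 unit put alike on both miR-139-5p arrays. That setting does not cover genes that moved in 1 line only, so it does not show what the fit could find in these data. Named genes were the called probes, the 5 lowest and 5 highest past the limit in 1 line only, genes of opposite direction, all reported targets (1 of them and 1 of the lists are not reported here), list members past the limit, and PDE2A. Other named genes were chosen after their values were seen. The arrays, lists and rules were chosen with earlier results of these data known. Tables and figures were made with Python 3.11.15, numpy 2.4.6, pandas 2.3.3 and matplotlib 3.10.9.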

Additional observations from a re-analysis of the deposited data

Results flagged for a closer look

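APOL6 was singled out because its log2 ratio lay on opposite sides of 0 in the lines, at -1.08 in A498 and 0.63 in 786-O (1 array each). The list of interferon response genes was singled out for the same reason, with a median log2 ratio of -0.29 in A498 and 0.11 in 786-O. The difference between the lines was not tested for either. Cell line and mock culture cannot be told apart.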

How the results depend on the processing

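The 3 calls of limma against mock became 7 with the scanner log ratio, 6 with an offset of 10 and 6 when only the miR-139-5p arrays were fitted, all lower. They became 0 under median centring, with no filter on dim probes, with both channels above background, with a variance trend and robust prior, with the cell line as a random block, and without either miR-139-5p array (0 to 0). Less the reference, 0 calls became 5 with no filter and 1 with the reference median.

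Genes lower in both lines numbered 35 with the scanner log ratio, 2 with an offset of 10 and 1 without the miR-490 arrays in the reference. Genes higher in both numbered 50 with the scanner log ratio. All these scanner genes had a mean log2 intensity under 8, and 0 of each were found at 8 or more. A limit of 0.3, chosen after seeing the data, gave 2 lower and 1 higher. The 28 genes of A498 only became 253 with the scanner log ratio, 52 with an offset of 10, 152 under median centring (of which 4 were shared with the 28), 29 without the si-GINS1 arrays in the reference (14 shared), 24 without the miR-490 arrays (18 shared), 4 at a limit of 1 and 102 at 0.3. The 3 genes of 786-O only became 227 with the scanner log ratio, 8 with an offset of 10, 7 with the reference median, 9 without the miR-490 arrays, 1 at a limit of 1 and 22 at 0.3. Of the 16 lists, 1 had a median of 0.2 or more from 0 by both measures on an array, and 4 did under median centring. A filter on the miR-139-5p arrays only, also chosen later, took the genes higher in A498 only from 4 to 7 and moved no other count by over 1.5 times. Each ratio set transfected against mock RNA of the same line on the same array, so that pairing was part of each test. The miR-139-5p arrays and the reference arrays came from different lines and were not paired. There was 1 array per line and no dye swap. In the main setting 31 of the 37 genes lower in A498 and 8 of the 11 higher had a mean log2 intensity of 8 or more. In 786-O 0 of the 2 lower genes and 1 of the 3 higher had.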
